A study of Arabidopsis thaliana with 6 samples.

Results

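The bZIP transcription factors were followed in germinating seeds of Arabidopsis thaliana through 57 probe sets of the ATH1 array (Affymetrix), out of 22746 probe sets other than controls. The members are all probe sets whose title in the authors' deposited table contains the word bZIP, with EEL left out. ABF3 and ABF4, also set aside by the rule, do not carry the word in their titles. Of the 57 members, 27 were named through the platform annotation and 7 through a gene name in the title, and 23 have no gene name in the sources used here and are given by their probe set ID. Each named member has its own gene locus. The 57 titles do not cover the whole family, and 11 further probe sets belong to bZIP genes by locus, EEL among them.

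The groups were seeds of the anac089-2 mutant and seeds of its wild type, both of the accession Columbia-0 (Col-0), with 3 biological replicates each. ANAC089 is a NAC-family transcription factor with a membrane anchor, and the labels do not state what kind of lesion the anac089-2 allele is. In both groups alike, seeds lay in water at 4 °C in the dark for 3 days and were then moved to light and 22 °C. There they received ABA (abscisic acid, the hormone that restrains germination) at 5 µM, and RNA was taken 3 h later. All seeds had ABA, so an altered ABA response and a difference independent of ABA cannot be told apart.

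bZIP proteins bind DNA through a basic region, mostly at sites with an ACGT core, and pair through a zipper of regularly spaced leucines. Which partners pair decides much of what they bind. In seeds the family is best known for the ABI5 and ABF proteins of group A, which act in ABA signalling. Other branches serve other pathways: HY5 acts in light signalling, the TGA factors of group D in salicylate and redox signalling, BZIP17, BZIP28 and BZIP60 in stress of the endoplasmic reticulum (ER), and groups C and S1 in sugar and energy signalling and in storage protein expression. The locus of 29 named members places them in groups A, B, D, E, F, H, I, K or S of the usual classification.

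The values are log2 expression levels after robust multi-array averaging (RMA), and differences are anac089-2 minus wild type throughout. Array medians lay between 3.97 and 4.01 on 5 arrays and at 3.8 for wild-type replicate 3. Wild-type replicate 3 was the highest or the lowest of the 6 arrays for 32 of the 57 members, or 56.1%, and for 60.3% of all probe sets. As for the labels, ANAC089 is tied to none of the probe sets by the sources used here. The largest decrease of all was that of a probe set titled as a NAM family protein, at 4.26, 4.02 and 4.23 in anac089-2 against 9.56, 9.43 and 9.59 in wild type. Precision is limited by having 3 arrays a group, and in whole seeds fewer cells of a type and less RNA per cell cannot be told apart. Of the tissue markers, 5 of 7 listed for endosperm, 4 of 6 for seed coat and 1 of 6 for embryo were found by name. None of these 10 passed the threshold, where 4.92% of all probe sets did. The embryo marker LEC1 as well as 3 of the endosperm and 3 of the seed coat markers had levels below the median of all probe sets. Only 0.246% of all probe sets passed at such levels, so the lack of calls does not measure tissue content. The largest difference was that of the endosperm marker EXPA2, at 1.22 with separate groups (limma adjusted p = 0.0645).

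At a limma adjusted p under 0.05, 1 of 57 bZIP members (1.75%) was called higher in anac089-2 seeds, against 2.94% of all probe sets. As lower, 0 members were called, against 1.98% of all probe sets. The member called higher was bZIP44, of group S1. It is known in Arabidopsis as a promoter of germination that acts on a mannanase gene of the endosperm wall, MAN7. Its log2 level was 6.19, 5.96 and 5.99 in anac089-2 seeds, against 5.36, 5.10 and 4.88 in wild-type seeds. The lowest mutant array lay above the highest wild-type array. The mean was 6.05 ± 0.125 in anac089-2 and 5.11 ± 0.240 in wild type (SD, n = 3 each), a rise of 1.91-fold, or 0.93 ± 0.144 on the log2 scale (SE, 95% interval 0.60 to 1.27, limma adjusted p = 0.0185). MAN7 itself had no probe set under a name found here.

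The call on bZIP44 held without wild-type replicate 1 (adjusted p = 0.0373) or replicate 3 (0.0170) and was lost without any other single array, with adjusted p between 0.0582 and 0.103. The difference itself stayed between 0.82 and 1.06 whichever array was left out. It was smaller, with the call kept, under a second quantile normalization (0.725, limma adjusted p = 0.00968) and under cyclic loess (0.728, adjusted p = 0.00843). Without wild-type replicate 3, a second member, AT2G31370 (POSF21), also passed.

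Across the family, counts were read against the background. At a limma adjusted p under 0.05, 1 of 57 members passed, or 1.75%, where 4.92% of all 22746 probe sets did. In the rising direction that was 1 of 57 against 2.94% of all probe sets, and in the falling direction 0 of 57 against 1.98%. At an unadjusted p under 0.05, 14 members passed, or 24.6% against 19.3% of all probe sets. Of the 57 members 8 were higher by that measure, against 13.2% of all probe sets, and 6 were lower (10.5%), against 6.12%. At an adjusted p under 0.10, 4 members passed, or 7.02% against 8.98%. The authors' deposited table likewise holds 1 member under an FDR of 0.05. The members' share was thus below the background by the adjusted thresholds and above it by the unadjusted one, with no test of either gap. The median difference of the members was 0.03, and that of all probe sets was 0.04.

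The levels of 22 of the 57 members lay below the median of all probe sets, under 3.96 on average over the 6 arrays. By definition 11373 of all 22746 probe sets lie there, so low levels were not more frequent among members. Only 0.246% of all probe sets at such levels passed. Among the 35 members above the median 1 passed, or 2.86%, where 9.60% of all probe sets above the median did. The median size of the difference, without its sign, was 0.22 for these 35 members and 0.26 for all probe sets above the median. Signed, the medians were both 0.14. All 14 members under an unadjusted p of 0.05 (limma) lay above the median, as did 3927 of all 4390 probe sets under that p. Above the median 14 of 35 members were thus under an unadjusted p of 0.05, where 34.5% of all probe sets above the median were. Below the median 0 of 22 members and 4.07% of all probe sets were under that p.

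The mutant and wild-type arrays did not overlap for 17 members, or 29.8%, where 24.0% of all probe sets were separate in this way. Of these, 10 were higher in anac089-2, 17.5% against 15.8% of all probe sets, and 7 were lower, 12.3% against 8.23%. Above the median 15 of 35 members were separate, or 42.9%, against 38.9% of all probe sets above the median. For 54 of the 57 members the 95% interval lay within 1 log2 unit on either side of 0, and for 32 of the 35 above the median. The share of all probe sets was not computed, so this count is not read as a trait of the family. The remaining 3 members were bZIP44 and the probe sets 260973_at and 248606_at. For 43 members the interval held 0. The other 14 were those under an unadjusted p of 0.05 (limma), or 24.6% against 19.3% of all probe sets.

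**Figure D1:**
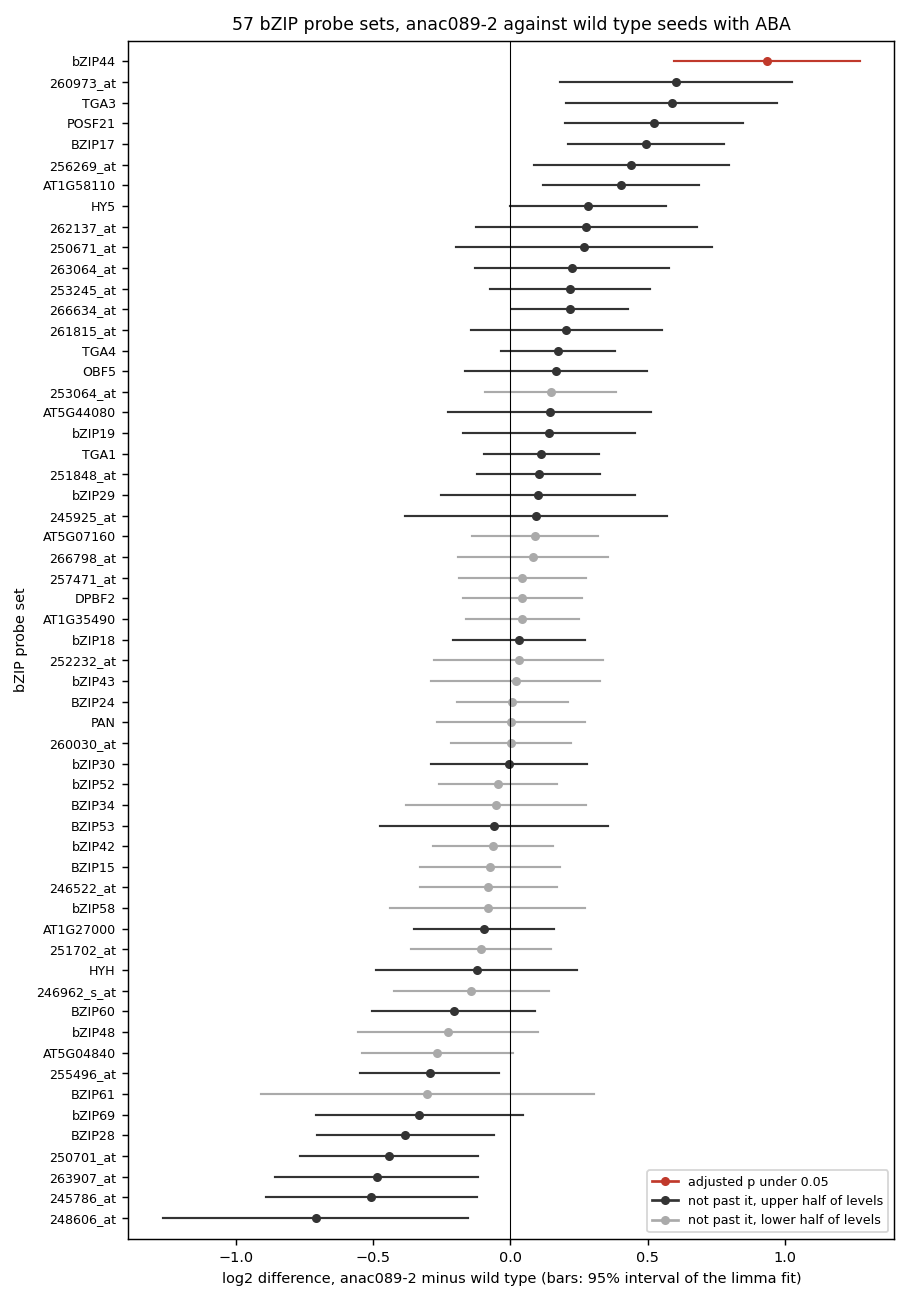
The log2 difference (anac089-2 minus wild type, x axis) of each of the 57 bZIP probe sets (y axis, ordered by difference), with bars for the 95% interval of the limma fit. bZIP44 at 0.93 is the one point past the adjusted p threshold, and the grey points of levels below the median stay between -0.30 and 0.15.

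In group S, bZIP44 stood beside 5 named members that did not pass. BZIP53, which pairs with group C factors and activates storage protein genes in maturing seeds, had 9.74, 10.01 and 9.51 in anac089-2 and 10.04, 9.87 and 9.53 in wild type. The groups overlapped, with a difference of -0.06 ± 0.177 (SE, 95% interval -0.48 to 0.36). bZIP42, bZIP43, bZIP48 and bZIP58 had levels between 2.61 and 3.19 on every array, below the median of all probe sets, and differences between -0.23 and 0.02.

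In group D, the TGA factors, none of the 5 named members passed. Their differences ran from 0.00 to 0.59 with a median of 0.17, where 57.0% of all probe sets were positive and the median of those above the median level was 0.14. TGA3, one of the TGA proteins that work with the salicylate receptor NPR1, had 7.26, 6.98 and 7.19 in anac089-2 against 6.43, 6.89 and 6.35 in wild type. Its groups were separate, with a difference of 0.59 ± 0.164 (SE, limma adjusted p = 0.0964). TGA4 had 5.08, 5.13 and 5.16 in anac089-2 against 4.94, 4.99 and 4.92 in wild type.

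The TGA4 groups were also separate, but the difference was 0.17 ± 0.0883 (SE, adjusted p = 0.348), and its sign turned under a second quantile normalization and under cyclic loess. TGA1, the closest relative of TGA4, had 8.51, 8.41 and 8.47 in anac089-2 and 8.38, 8.30 and 8.37 in wild type, a difference of 0.11 ± 0.0898 (SE, 95% interval -0.10 to 0.32). OBF5, also called TGA5, had 0.17 ± 0.141 (SE) with overlapping groups, and 0.07 and 0.06 under the same 2 normalizations. PAN, a regulator of floral organ number, had levels of 2.55 to 2.89 on all 6 arrays and a difference of 0.00 that changed sign under several settings. A further probe set, 250671_at, is titled as a homolog of the wheat histone gene promoter-binding factor HBP-1b, and it had 0.27 ± 0.199 (SE). Its 3 mutant arrays lay at 6.64 to 6.93, and its wild-type arrays at 6.83, 6.66 and 6.08.

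In the ER stress branch, the membrane-anchored factors BZIP17 and BZIP28 of group B had differences of opposite sign, and neither passed. Both proteins are held in the ER membrane and are released by proteases of the Golgi when the ER is under stress. BZIP17 had 7.90, 7.90 and 7.73 in anac089-2 against 7.31, 7.54 and 7.20 in wild type, a difference of 0.49 ± 0.121 (SE, limma adjusted p = 0.0656). All mutant arrays lay above all wild-type arrays.

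BZIP28 had 8.88, 9.14 and 8.80 in anac089-2 against 9.45, 9.40 and 9.12 in wild type, a difference of -0.38 ± 0.137 (SE, adjusted p = 0.180), with 1 mutant array just above the lowest wild-type array. BZIP60, whose messenger RNA is spliced by the ER kinase IRE1 in stress, had 9.56, 9.49 and 9.29 in anac089-2 and 9.69, 9.80 and 9.47 in wild type. Its groups overlapped, with a difference of -0.21 ± 0.127 (SE, 95% interval -0.50 to 0.09).

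**Figure D2:**
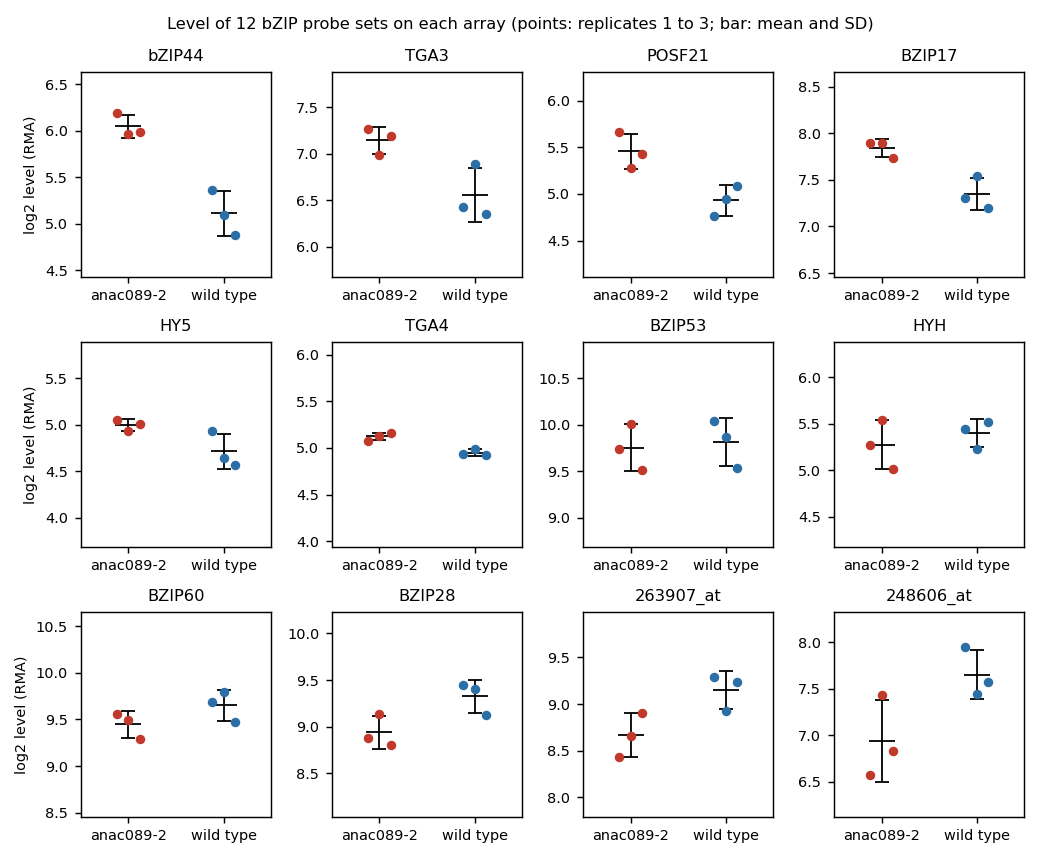
Log2 level (RMA, y axis) of 12 bZIP probe sets on each of the 6 arrays, with anac089-2 on the left and wild type on the right. Points are replicates 1 to 3 from left to right, and the bar is the mean and SD. All panels span the same range of 2.2 log2 units. The groups are separate with anac089-2 higher for bZIP44, TGA3, POSF21, BZIP17 and TGA4, and with anac089-2 lower for 263907_at and 248606_at. They overlap for HY5, BZIP53, HYH, BZIP60 and BZIP28.

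In group H, the light-signalling factors HY5 and HYH did not pass. HY5, which promotes photomorphogenesis and also binds the ABI5 promoter, had 5.05, 4.93 and 5.01 in anac089-2 against 4.93, 4.64 and 4.57 in wild type. The lowest mutant value equalled the highest wild-type value, and the difference was 0.28 ± 0.121 (SE, 95% interval -0.001 to 0.57, adjusted p = 0.260). It was 0.06 under a second quantile normalization and 0.08 under cyclic loess. HYH, its close homolog, had 5.27, 5.54 and 5.01 in anac089-2 and 5.44, 5.23 and 5.52 in wild type, a difference of -0.12 ± 0.156 (SE) with overlapping groups, which was -0.34 and -0.33 under the same 2 normalizations.

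Group I, to which the stress- and osmosensing factor VIP1 belongs, had 6 named members, none past the threshold. AT2G31370 (POSF21) had 5.66, 5.28 and 5.43 in anac089-2 against 4.76, 4.95 and 5.09 in wild type. Its groups were separate, with a difference of 0.52 ± 0.138 (SE, limma adjusted p = 0.0814). It passed without wild-type replicate 3 (adjusted p = 0.0450) and with array weights (0.0327). The difference was 0.29 (adjusted p = 0.482) under a second quantile normalization and 0.31 (0.437) under cyclic loess.

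AT1G06070 (bZIP69) had the opposite sign, -0.33 ± 0.161 (SE, adjusted p = 0.320), with 7.97, 8.22 and 8.09 in anac089-2 and 8.09, 8.60 and 8.59 in wild type. The groups overlapped, since 1 mutant array lay above the lowest wild-type array and another equalled it. AT2G40620 (bZIP18), known from pollen, had a difference of 0.03 ± 0.103 (SE), and its 6 arrays spanned 6.63 to 6.89. AT2G21230 (bZIP30) had -0.01 ± 0.121, and AT4G38900 (bZIP29) had 0.10 ± 0.151 (SE). bZIP52 was below the median level, at 2.56 to 2.71.

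Named members of the remaining groups gave small differences. In group A, AT5G44080 had 0.14 ± 0.157 (SE), while DPBF2 (bZIP67) and AT5G42910 (BZIP15) had levels under 3.3 on all arrays. DPBF2 works with LEC1-type factors in seed maturation and activates storage protein and FAD3 genes there. It had 3.21, 3.15 and 3.15 in anac089-2 and 3.21, 3.06 and 3.11 in wild type, a difference of 0.04 ± 0.0925 (SE, 95% interval -0.17 to 0.26).

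In group F, bZIP19, a sensor of zinc deficiency, had 7.58, 7.49 and 7.34 in anac089-2 and 7.36, 7.52 and 7.11 in wild type. The groups overlapped, with a difference of 0.14 ± 0.133 (SE) that was 0.03 and 0.02 under quantile and loess normalization. BZIP24, linked to salt stress, lay at 2.61 to 2.66 on all 6 arrays. The group E members BZIP34, known from pollen, and BZIP61 were also below the median, and BZIP61 had 3.70 on wild-type replicate 3 against 2.60 to 2.94 on the other 5 arrays.

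**Figure D3:**
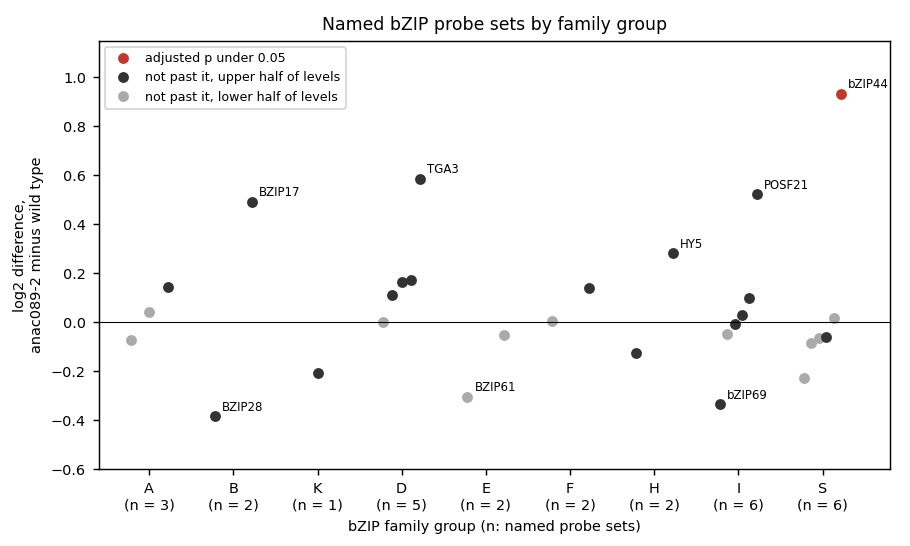
The log2 difference (anac089-2 minus wild type, y axis) of the 29 named bZIP probe sets that have a family group (x axis, with the number of named probe sets). One point is past the threshold, bZIP44 in group S, and the group B pair BZIP17 and BZIP28 lie at 0.49 and -0.38.

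Members without a gene name or family group held the most negative differences. The probe set 248606_at, titled as a bZIP family transcription factor, had 6.57, 7.43 and 6.83 in anac089-2 against 7.95, 7.44 and 7.57 in wild type. Its groups were separated by 0.01 log2 units, and the difference was -0.71 ± 0.236 (SE, limma adjusted p = 0.153). No other member had so wide a spread in anac089-2, with an SD of 0.441 over the 3 arrays.

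The probe set 263907_at is the one member titled as a putative ABA-responsive element-binding protein. It had 8.43, 8.66 and 8.90 in anac089-2 against 9.29, 8.92 and 9.24 in wild type, a difference of -0.49 ± 0.158 (SE, adjusted p = 0.144). The groups were separate by 0.02 log2 units. The probe sets 245786_at and 250701_at also had separate groups, with -0.51 ± 0.164 and -0.44 ± 0.138 (SE, adjusted p = 0.144 and 0.129).

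On the positive side, the probe set 260973_at, titled as a bZIP protein, had 5.33, 4.89 and 5.52 in anac089-2 against 4.75, 4.74 and 4.44 in wild type. The difference was 0.60 ± 0.179 (SE, adjusted p = 0.114). The probe set 256269_at had 0.44 ± 0.151 (SE, adjusted p = 0.164), with 3 mutant arrays within 5.98 to 6.03 and wild-type arrays at 5.85, 5.58 and 5.27. AT1G58110 had 5.89, 6.12 and 5.94 in anac089-2 against 5.76, 5.52 and 5.46 in wild type, a difference of 0.40 ± 0.121 (SE, adjusted p = 0.117). The groups of all 3 were separate. Under a second quantile normalization and cyclic loess these differences were smaller, at 0.40 and 0.39 for 260973_at, 0.24 under both for 256269_at, and 0.21 and 0.20 for AT1G58110. The negative differences above were larger in size under the same normalizations. They were -0.825 and -0.835 for 248606_at, -0.712 and -0.719 for 245786_at, -0.525 and -0.551 for 250701_at, and -0.503 and -0.540 for 263907_at. None of these passed (limma adjusted p = 0.0737 to 0.140).

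Other genes of these pathways were taken from lists. These were chosen with earlier results of these data known, so their counts are no independent test against the background. Of 11 probe sets of bZIP genes outside the rule, 0 passed, with a median of 0.07. The largest differences there were those of EEL (0.39 ± 0.104, SE, adjusted p = 0.0812) and the G-box factor GBF2 (-0.27 ± 0.156, SE, adjusted p = 0.417). Of 12 TGA cofactors, 6 were measured under a name found here and 0 passed, and 5 of the 6 had levels below the median. NPR1, the coactivator of TGA factors, had 0.18 ± 0.133, and NIMIN-1, an NPR1 interactor, had -0.27 ± 0.222 (SE).

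Among HY5 partners and the light receptors above it, 11 of 19 were found by name, 1 rose, 0 fell and 10 did not pass. All but 1 of the 11 had levels above the median, where 9.60% of all probe sets passed, so the count is near the background. PHYA, the far-red light receptor phytochrome A, rose, with 10.26, 10.20 and 10.07 in anac089-2 against 9.68, 9.59 and 9.43 in wild type, a difference of 0.61 ± 0.109 (SE, limma adjusted p = 0.0266). PHYB, the red light receptor phytochrome B, had 7.27, 7.64 and 7.64 in anac089-2 against 8.14, 8.18 and 7.94 in wild type, a difference of -0.57 ± 0.137 (SE, adjusted p = 0.0622). BBX24, a B-box protein that binds HY5, had 8.27, 7.98 and 8.16 in anac089-2 against 7.42, 7.48 and 6.68 in wild type, and 0.94 ± 0.218 (SE, adjusted p = 0.0564). PHYB and BBX24 were picked after their values were seen. All 3 genes had separate groups, and PHYA lost its call without any single array other than wild-type replicate 3 (adjusted p = 0.0512 to 0.137).

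**Figure D4:**
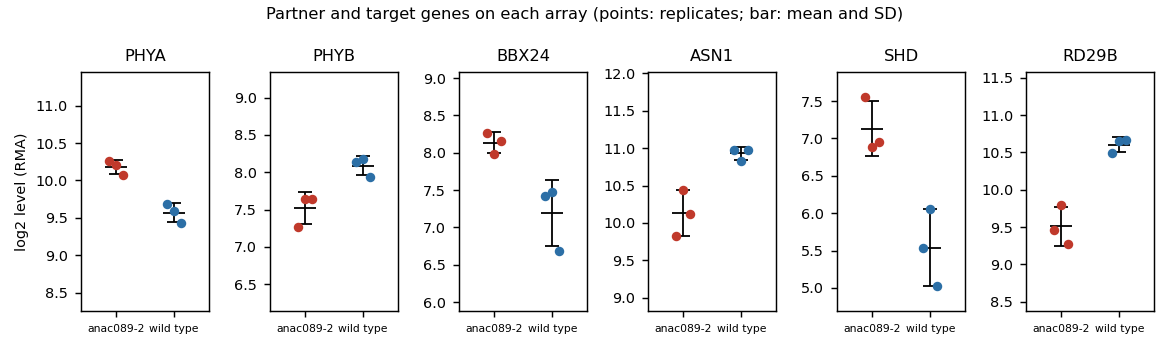
Log2 level (RMA, y axis) of 6 partner or target genes on each array, with anac089-2 on the left and wild type on the right. Points are replicates 1 to 3 from left to right, the bar is the mean and SD, and all panels span 3.2 log2 units: the groups are separate in all 6, with anac089-2 above wild type for PHYA, BBX24 and SHD and below it for PHYB, ASN1 and RD29B.

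Of the genes around SnRK1 kinase and the group C and S1 factors, 8 of 25 were found by name, 0 rose, 1 fell and 7 did not pass. All 8 had levels above the median, where 9.60% of all probe sets passed. The 1 was ASN1, the dark-inducible asparagine synthetase and a known target of group S1 factors. It had 9.83, 10.44 and 10.12 in anac089-2 against 10.98, 10.83 and 10.98 in wild type, and fell by 0.80 on the log2 scale (SE 0.160, limma adjusted p = 0.0370). The call on ASN1 was lost without any one of 4 arrays, anac089-2 replicates 1 and 3 and wild-type replicates 1 and 2 (adjusted p = 0.0879 to 0.155).

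In the list around the ER stress factors, 7 of 19 were found by name, 1 rose, 0 fell and 6 did not pass. All 7 had levels above the median, where 9.60% of all probe sets passed. SHD, the HSP90 chaperone of the ER, rose, with 7.55, 6.89 and 6.95 in anac089-2 against 5.54, 6.05 and 5.03 in wild type, a difference of 1.59 ± 0.282 (SE, limma adjusted p = 0.0261). The median of the 7 was 0.37, against 0.14 for all probe sets above the median level. The 6 others were ERDJ3B, an ER co-chaperone, at 0.67 ± 0.270, the calreticulin genes CRT1B at 0.64 ± 0.223 and CRT3 at 0.25 ± 0.125, and S1P, the protease that cuts BZIP17, at 0.37 ± 0.193 (SE). The splicing kinase genes IRE1A and IRE1B had -0.05 ± 0.126 and -0.07 ± 0.147 (SE). The call on SHD was lost without any anac089-2 array or without wild-type replicate 1 (adjusted p = 0.0687 to 0.125).

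In the list around ABI5, 5 of 17 were found by name, 0 rose, 2 fell and 3 did not pass. All 5 had levels above the median, where 9.60% of all probe sets passed in either direction. Of all probe sets at any level, 1.98% passed as lower. Of the 1120 that passed in either direction 1092 lay above the median, so 1.98% understates the share of falls at such levels. ABI5 itself was tied to no probe set by the sources used here. Whether it is among the 23 members without a gene name is not known. RD29B, an ABA-induced gene with ABRE sites for group A factors, had 9.46, 9.79 and 9.28 in anac089-2 against 10.49, 10.65 and 10.67 in wild type. It fell by 1.09 on the log2 scale (SE 0.146, limma adjusted p = 0.0136). EM1, a late embryogenesis abundant protein gene and known ABI5 target, had 11.59, 11.78 and 11.50 in anac089-2 against 12.30, 12.28 and 12.67 in wild type.

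EM1 fell by 0.79 (SE 0.141, limma adjusted p = 0.0262). For both genes all mutant arrays lay below all wild-type arrays. The call on EM1 was lost without any single array other than wild-type replicate 3 (adjusted p = 0.0546 to 0.136), and that on RD29B without anac089-2 replicate 1 or 3 or wild-type replicate 2 (0.0537 to 0.0853). The 3 that did not pass had positive differences. They were ABI4 at 0.72 ± 0.173 (SE, adjusted p = 0.0622) and ABI3 at 0.50 ± 0.145 (SE, adjusted p = 0.106), regulators that act with ABI5 in ABA signalling. The third was EM6, the other Em gene, at 0.05 ± 0.0872 (SE, limma adjusted p = 0.798). The groups of all 3 were separate, as were 38.9% of all probe sets above the median. For EM6 the lowest mutant array was at 13.99 and the highest wild-type array at 13.98.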

How the data were processed

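Total RNA of 6 seed samples was labelled with biotin and hybridised to ATH1 arrays, per the labels' protocols. Levels were deposited by the authors on the log2 scale, 1 value per probe set and array, made with RMA, per the submitters' processing notes, which also name limma. No versions of either are given. Their comparison table holds titles, log2 fold changes and limma FDR values (adjusted p-values), per the file headers. Its 6 columns of per-array values were not used.

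After 64 control probe sets were set aside, a linear model (lmFit, then eBayes, no block) was fitted to 22746 probe sets on 3 against 3 arrays in R 4.3.3 with limma 3.58.1, with Benjamini-Hochberg adjustment over all of them and a threshold of 0.05. The procedure was tested on simulated data. Gene names came from the platform annotation (13513 probe sets with 1 gene symbol, 503 with several) through RefSeq identifiers of assembly TAIR10.1, and for 1759 probe sets from a name in brackets in the title. A list gene with several probe sets was counted by the one with the highest mean. Where no symbol was found no name was given.

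Members and lists were chosen with earlier results of these data known. Named are the members past the threshold, the 10 others with the largest difference, and well-known family members by role. In each list up to 4 genes past the threshold, or the 2 with the largest difference, are named, and PHYB, BBX24 and the genes in the last 2 lists that did not pass were added after their values were seen. The alternatives were other normalizations, a filter, other spread estimates, array weights, a replicate block, the authors' statistics, other thresholds, 1 value per gene and leaving out each array. No pair of arrays was identical. Plots were drawn with matplotlib 3.10.9.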

Additional observations from a re-analysis of the deposited data

How the results depend on the processing

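The count of bZIP members past the threshold was 1, higher in anac089-2, and stayed at 1 under a second quantile normalization, median centring, cyclic loess, leaving out the dimmest 40%, an intensity trend, robust estimation, the replicate block, 1 value per gene, leaving out the member of a shared-probe type, and the authors' deposited statistics. It was 2 with array weights (9.10% of all probe sets passed), 0 at an adjusted p under 0.01 (0.198%) and 4 at an adjusted p under 0.10 (8.98%), and 0 to 2 with 1 array left out (0.0176% to 7.33%). Over all probe sets the count was 6 and 4 without anac089-2 replicates 1 and 3, against 1120 with all arrays. The median difference of the members was -0.003 (second quantile normalization), -0.06 (median centring) and 0.113 (dimmest 40% left out), and 0.01 to 0.05 with 1 array left out. That of all probe sets was 0.003, -0.053 and 0.12 in the same order, and 0.002 to 0.067 with 1 array left out. No pairing by replicate number was seen (residual correlations -0.089, -0.063 and -0.135, and 0 of 6 arrays closest to their own number). With the replicate block bZIP44 kept its call (adjusted p = 0.0402), while PHYA (0.0586), ASN1 (0.0769) and EM1 (0.0681) lost theirs, and the count over all probe sets was 494.

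Signs turned for members near 0: TGA4 to -0.061 (quantile) and -0.039 (loess), DPBF2 to -0.047 (median centring), BZIP24 to -0.083 (median centring) and PAN to -0.087 (median centring) and -0.004 (array weights). With 1 array left out BZIP24 ranged over -0.010 to 0.017, PAN over -0.085 to 0.085, BZIP53 over -0.202 to 0.062 and HYH over -0.257 to 0.008. NPR1 turned to -0.023 (quantile) and -0.025 (loess). PHYB passed under 6 and BBX24 under 7 of the settings tried, among them all 3 normalizations. The cause was not tested. Under quantile and loess normalization TGA1 was 0.085 and 0.038, and EEL 0.284 and 0.251. Few calls are made at the low levels of 22 of the 57 members.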

Other observations

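Wild-type replicate 3 alone was the highest or lowest array for 56.1% of members, against 36.8% for anac089-2 replicate 3, 31.6% for anac089-2 replicate 1, 29.8% for wild-type replicate 1, 21.1% for wild-type replicate 2 and 15.8% for anac089-2 replicate 2. Over all probe sets the shares were 60.3%, 26.0%, 32.6%, 28.4%, 25.9% and 18.4% in the same order. Among members, wild-type replicate 3 set BZIP61 apart (3.70, against 2.60 and 2.94 on the other wild-type arrays), and OBF5 from the other direction (7.21, against 7.70 and 7.60). The tissue marker EXPA2, an expansin of the endosperm, had 4.44, 5.03 and 5.02 in anac089-2 seeds against 3.45, 4.24 and 3.13 in wild-type seeds, a difference of 1.22 ± 0.297 (SE, limma adjusted p = 0.0645), with separate groups. The linear levels of the 5 endosperm markers summed to 61.8 to 70.9 in anac089-2 and 43.7 to 62.1 in wild type. The brightest probe sets carry such a sum, 3 of the 5 markers were below the median level, and FIS2 and AGL62 had negative differences (-0.20 and -0.14), so the sum gives no measure of endosperm content. The part of these values in the rise of bZIP44 was not tested. The SnRK1 and S1 target list also held DIN10, a dark-inducible gene, at 0.69 ± 0.213 (SE, adjusted p = 0.128), opposite in sign to ASN1, and the expansin gene EXP8 at 0.57 (adjusted p = 0.0786). EXPA2, FIS2, AGL62, DIN10 and EXP8 were chosen after their values were seen.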
